A study of Rattus norvegicus with 2 samples.

Results

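The prostaglandin genes described here are 10 genes for the release of arachidonic acid, its conversion to prostaglandin E2, the breakdown of that product and its receptors: Pla2g4a, Ptgs1, Ptgs2, Ptges, Ptges2, Hpgd, Ptger1, Ptger2, Ptger3 and Ptger4. They were chosen by gene name, out of 27235 genes with a named probe, and are read by 17 probes in 19 spots on each array. The study exposed IEC6 cells, a non-transformed line cultured from rat small intestinal epithelium, to the inorganic polysulfide Na2S3 for 60 min, or to water for 60 min. Total RNA of each group was labelled with Cy3 and hybridised to 1 single-colour Agilent array, so the groups are 1 Na2S3 array and 1 water array. The dose was 100 µM by the sample label, but the treatment protocol writes the same number in mM. Both cultures were of the same unmodified line, and the treatment was made in low-serum DMEM. With no replicate array, no difference below has a replicate check or a p-value, and "higher" and "lower" describe these arrays.

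Prostaglandins are made from arachidonic acid that cytosolic phospholipase A2 cuts from membrane lipids. The cyclooxygenases, one constitutive in many tissues and one inducible, convert it to an unstable endoperoxide, from which terminal synthases make prostaglandin E2. In the intestinal mucosa that product acts through a family of G protein-coupled receptors on epithelial renewal, ion secretion and wound repair, and a dehydrogenase in the same tissue inactivates it.

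Of the 10 genes, 5 had a probe well above background on both arrays (Ptgs2, Ptges, Ptges2, Pla2g4a and Ptger4). Of these, 1 passed 2-fold upward in the Na2S3 array, Ptgs2. The other 4 lay within 1.5-fold, and 0 of the 5 were at least 2-fold lower. The background rates, over 13062 genes with a value on each array, were 0.942% past 2-fold upward, 0.62% past 2-fold downward in the Na2S3 array, and 93.6% within 1.5-fold. The remaining 5 genes (Ptgs1, Hpgd, Ptger1, Ptger2 and Ptger3) had no probe well above background on either array, and for them the arrays give no ratio. Among all genes with a named probe, 48.0% were well above background on both arrays, 1.69% in Na2S3 alone and 2.21% in water alone, against 0 of the 10 genes for either of the last. The median log2 ratio of the 5 measured genes was 0.12, and 0.07 without Ptgs2, against -0.04 for all measured genes. Signals below are the processed signal of the scanner files in intensity units, and ratios are the Na2S3 array over the water array after each array was scaled to its 75th percentile (478 intensity units on the Na2S3 array and 413 on the water array).

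**Figure D1:**
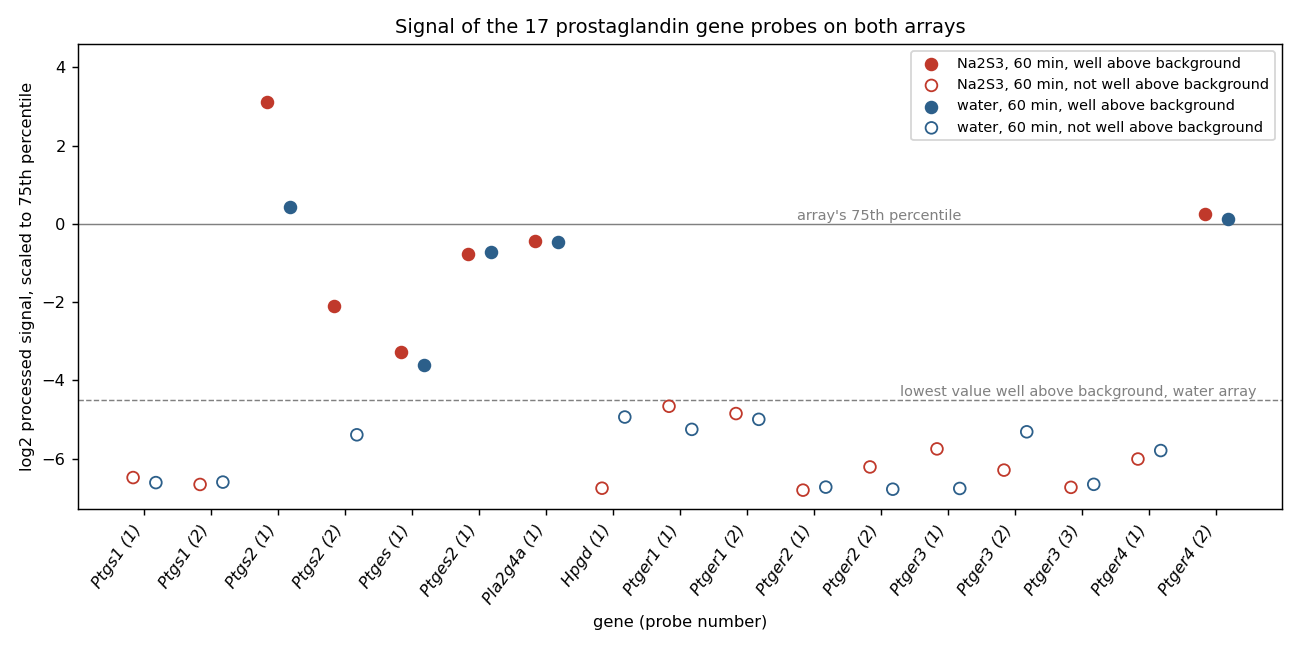
Log2 processed signal of the 17 probes of the 10 prostaglandin genes, scaled to each array's 75th percentile (vertical axis), with the Na2S3 array as the left and the water array as the right point of each pair. Filled points are well above background, the dashed line is the lowest such value on the water array, and both Ptgs2 probes stand higher in the Na2S3 array, the downstream one at 3.11 against 0.43 in the water array.

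Ptgs2, which encodes the inducible cyclooxygenase, was read by 2 probes. The probe that lies farther downstream, on rat chromosome 13 at 64435202 to 64435261 (plus strand, rn4 build as in the files), was spotted 2 times. It carries the name Ptgs2 in the files, and its accession was not in the RefSeq table. Its spots had signals of 4037 and 4228 in the Na2S3 array, against 534 and 584 in the water array. Both Na2S3 spots were thus far above both water spots, and the spots of 1 array differed little from each other. Scaled to the 75th percentile, the probe stood at 865% in the Na2S3 array and at 135% in the water array, a 6.41-fold higher value (log2 ratio 2.68). The spot pairs gave log2 ratios of 2.71 and 2.65. The error of this ratio estimated from repeat spots of similar signal was 0.05, which covers the spread between spots only and not that between cultures.

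The other Ptgs2 probe lies on chromosome 13 at 64432919 to 64432978, 2223 bases upstream of the first, and had 1 spot. It had a signal of 111 in the Na2S3 array, against 9.85 in the water array, where it was not well above background. Its value in the Na2S3 array was at least 5.23-fold higher than the lowest signal that counts as well above background on the water array. With normexp background correction this bound was 2.09-fold. Of 17990 probes of named genes that were not well above background on the water array, 0.75% were above it in the Na2S3 array with a bound of 2-fold or more. The 2 probes are both higher in the Na2S3 array, although their signals cannot be set against each other, since probes differ in how strongly they hybridise. The upstream probe is printed here for its reading frames. It has 1 without an internal stop codon, and that frame closes on a stop codon, in capitals, at the probe's end. Whether this is the frame of the coding sequence was not checked. The downstream probe had 0 frames without an internal stop codon.
Ptgs2 probe: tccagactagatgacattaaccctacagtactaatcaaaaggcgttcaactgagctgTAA

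By ratio, Ptgs2 stood at rank 12 of the 13062 measured genes. Of the 5014 genes with a mean scaled signal at or above its own, 1 had a larger ratio, Vegfa, an angiogenic growth factor gene. Among the 1679 genes within 0.5 log2 units of its mean signal, the SD of the log2 ratios was 0.27, and 0.715% were at least 2-fold higher. The genes with the nearest ratios on this pair of arrays, counted among genes with a symbol, were Vegfa (3.15), Chac1 (2.93), which encodes an enzyme that degrades glutathione, and Hcls1 (2.91) above it. Below it came Iapp (2.59), Osgin1 (2.55) and Myc (2.46), the last a growth-promoting transcription factor gene. Likeness here is the distance between log2 ratios over 1 array per group, and Hcls1, Iapp and Osgin1 stood at 1.36, 1.09 and 1.61 with normexp. Ptgs2 and Myc were less affected by that correction, at 2.55 and 2.40.

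**Figure D2:**
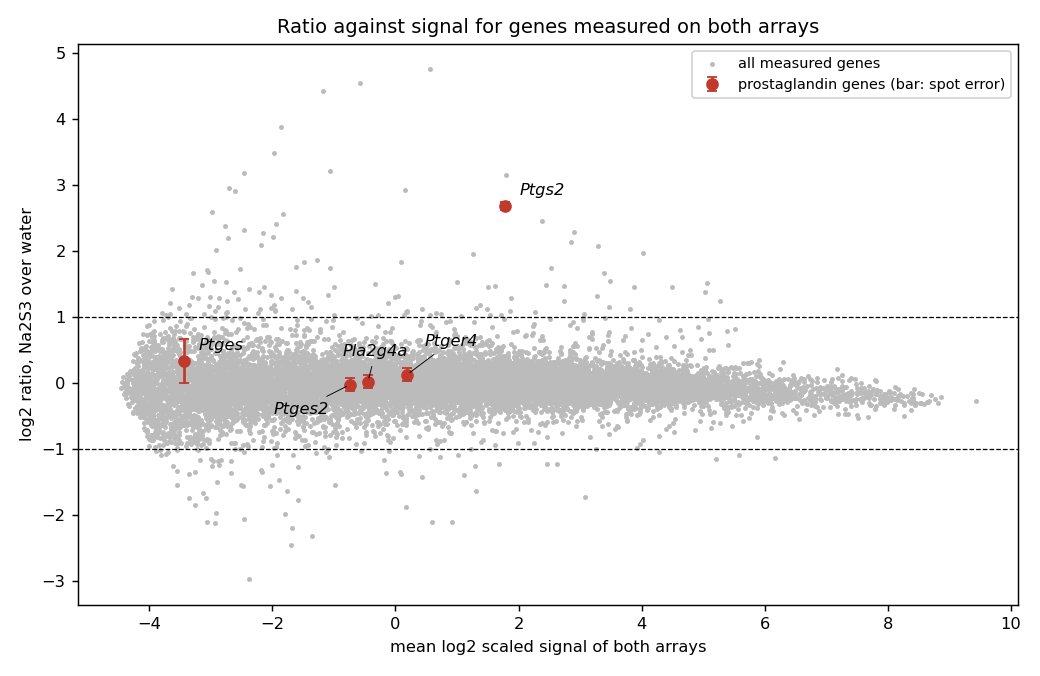
Log2 ratio of the Na2S3 array over the water array (vertical axis) against the mean log2 scaled signal of both arrays (horizontal axis) for 13062 genes in grey, with the 5 measured prostaglandin genes in red and their spot errors as bars. Dashed lines mark 2-fold, and Ptgs2 at 2.68 lies far outside the band that holds the other 4.

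Ptgs1 encodes the constitutive cyclooxygenase and had 2 probes, neither well above background. The probe spotted 2 times had signals of 5.84 and 4.87 in the Na2S3 array, against 4.36 and 4.09 in the water array. The other had 4.72 in the Na2S3 array and 4.26 in the water array. The lowest signals that counted as well above background were 20.5 on the Na2S3 array and 18.3 on the water array, so every Ptgs1 value lay under that level. The arrays therefore measured 1 of the 2 cyclooxygenase genes. To set the start regions of that pair side by side, the RefSeq promoters of the GRCr8 build are printed, each of 300 bases around the annotated start. The Ptgs2 promoter is chr13:64713813-64714112 and the Ptgs1 promoter is chr3:39981169-39981468, both on the plus strand. Capitals mark matches to the motifs named in the next paragraph.
Ptgs2 promoter: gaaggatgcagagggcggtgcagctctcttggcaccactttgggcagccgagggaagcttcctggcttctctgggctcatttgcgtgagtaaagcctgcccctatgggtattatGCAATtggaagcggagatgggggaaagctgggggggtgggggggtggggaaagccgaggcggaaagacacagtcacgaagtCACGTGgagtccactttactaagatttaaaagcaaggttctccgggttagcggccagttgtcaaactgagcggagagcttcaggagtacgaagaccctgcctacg
Ptgs1 promoter: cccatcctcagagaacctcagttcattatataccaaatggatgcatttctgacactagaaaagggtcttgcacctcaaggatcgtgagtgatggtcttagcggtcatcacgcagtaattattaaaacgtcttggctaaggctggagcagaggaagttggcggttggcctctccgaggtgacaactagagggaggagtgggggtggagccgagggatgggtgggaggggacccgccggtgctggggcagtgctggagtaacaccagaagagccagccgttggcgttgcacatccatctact

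Searched on both strands, the Ptgs2 promoter held an E-box (CACGTG), which starts at position -55 from the annotated start, and a C/EBP half-site (GCAAT), which starts at position -136. The matches do not overlap. In the 33469 promoters of the same length in the table, 6.42% held the E-box and 26.8% the C/EBP half-site. Neither the Ptgs2 nor the Ptgs1 window held the cyclic AMP response half-site (CGTCA, 21.2% of all promoters), the AP-1 site (TGANTCA, 7.33%), the ATF4 and CHOP element (TGATGNAA, 3.98%), the antioxidant response element (TGACNNNGC, 12.1%), the NF-kB-like site (1.53%) or the TATA box (TATAAA, 14.2%). The Ptgs1 window held 0 of the 8 motifs. Promoters of 9 of the 10 genes were matched by symbol, and the E-box was in 2 of these, those of Ptgs2 and Hpgd. The antioxidant response element was also in 2, those of Ptger2 and Ptger3. The cyclic AMP half-site was in 1 (Hpgd), the C/EBP half-site in 1 (Ptgs2) and the TATA box in 1 (Pla2g4a, on the reverse strand), and the other 3 motifs were in 0. These are matches of letters, and binding was not measured.

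Pla2g4a encodes cytosolic phospholipase A2 alpha, which releases arachidonic acid. Its 1 probe, on chromosome 13 at 64146152 to 64146211 (minus strand, rn4), had a signal of 353 in the Na2S3 array, against 301 in the water array. After scaling, it stood at 73.9% of the 75th percentile in the Na2S3 array and at 72.9% in the water array, a log2 ratio of 0.02 with a spot error of 0.10. The arrays did not separate these values. In the GRCr8 table Pla2g4a is the nearest protein-coding neighbour of Ptgs2 on one side, with 2 genes between them, a pseudogene and the noncoding Ptgs2os, and 0 protein-coding genes. Within this stretch Ptgs2 was thus 6.41-fold higher and Pla2g4a within its spot error of 0.

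Ptges encodes the inducible, glutathione-dependent terminal synthase of prostaglandin E2, known to be co-induced with Ptgs2 in many inflamed tissues. Its 1 probe had a signal of 49.7 in the Na2S3 array, against 34.2 in the water array, and was well above background on both. The log2 ratio was 0.33, with a spot error of 0.34. Genes within 0.5 log2 units of its mean signal had an SD of 0.49, so the difference lies inside the spread of other genes as dim as this one. With normexp the ratio was -0.02, and its direction is therefore not settled. Ptges2 encodes another terminal synthase, which is made constitutively. It had a signal of 282 in the Na2S3 array, against 249 in the water array, and a log2 ratio of -0.03 with a spot error of 0.10.

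Ptger4 encodes the EP4 receptor, which raises cyclic AMP and is the EP receptor most often studied in intestinal epithelium. Its 2 probes disagree on detection. The one farther downstream, on chromosome 2 at 54422116 to 54422175 (minus strand, rn4), had a signal of 567 in the Na2S3 array, against 451 in the water array. The other, 1120 bases upstream on the transcribed strand at 54423296 to 54423355, had 7.41 in the Na2S3 array and 7.45 in the water array, not well above background on either. The scaled log2 ratio of the downstream probe was 0.12 with a spot error of 0.10, and the SD of genes of like signal was 0.33. The upstream probe is printed beside that of Ptgs2: it has 1 reading frame without a stop codon, while the downstream probe has 0. Unlike that of the Ptgs2 probe, this frame does not close on a stop codon at the probe's end. Most of the 17 probes had such an open frame, so it does not place the probe in coding sequence. In both genes the downstream probe carried the measured ratio.
Ptger4 probe: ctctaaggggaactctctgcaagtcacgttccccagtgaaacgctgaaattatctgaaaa

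The other EP receptor genes were not well above background on either array. Ptger1, whose product signals through calcium, had signals of 18.9 and 16.6 at its 2 probes in the Na2S3 array, against 10.8 and 13.0 in the water array. The first of these, 18.9, is the highest signal among Na2S3 values of member probes not well above background, just under that array's limit of 20.5. The files place this probe on the plus strand and the other Ptger1 probe on the minus strand, in overlapping stretches of chromosome 19. Ptger2, whose product raises cyclic AMP, had signals of 4.27 and 6.44 in the Na2S3 array, against 3.90 and 3.76 in the water array. The files place the 2 Ptger2 probes 674945 bases apart, and the accession of one of them was not in the RefSeq table. Ptger3, whose product lowers cyclic AMP, had signals of 8.86, 6.09 and 4.48 at its 3 probes in the Na2S3 array, against 3.81, 10.4 and 4.10 in the water array. No order between the arrays can be read from these values, and the 3 Ptger3 probes do not share a direction.

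Hpgd encodes 15-hydroxyprostaglandin dehydrogenase, the enzyme that inactivates prostaglandin E2. Its 1 probe had a signal of 4.42 in the Na2S3 array, against 13.5 in the water array, and was not well above background on either. Both values lie under the detection limits, so the difference gives no fold. In all, 11 of the 17 probes were well above background on neither array, 5 on both, 1 in Na2S3 alone (the upstream Ptgs2 probe) and 0 in water alone. Over the probes of all named genes, 1.76% were above background in Na2S3 alone. Of all 45598 non-control probes, 21516 were well above background on both arrays. The share was 49.0% on the Na2S3 array and 49.5% on the water array, and the share on neither was not computed. The scanner software's looser test, which asks for a signal significantly above local background, was passed by 8 of these 11 in the Na2S3 array and by 5 in the water array. For the other 3 and 6 probes the deposited signal is a value that the software puts in place of a measured one. The share of all probes that passed this looser test was not computed, so these counts do not set the arrays apart.

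The rest of the eicosanoid pathway was read from 5 related lists. Of their 79 genes, all with a probe, 54 were measured on both arrays. Of these 54, taken at the brightest probe, none passed 2-fold in either direction (0 upward and 0 downward), 51 lay within 1.5-fold, 23 had a positive ratio, and the median log2 ratio was -0.06. Over all measured genes, 43.4% had a positive ratio, 93.6% lay within 1.5-fold, and 0.942% and 0.62% passed 2-fold upward and downward. At these rates 54 genes are too few for counts of 0 to set the lists apart from other genes. Detection differed for 3 more genes, with 1 seen just in the Na2S3 array and 2 just in the water array.

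Among other prostanoid synthases and receptors, 8 of 11 genes were measured, 3 with a positive ratio, and the median log2 ratio was -0.06. Ptgdr2, a prostaglandin D2 receptor gene, had a signal of 41.2 in the Na2S3 array, against 20.8 in the water array, with a log2 ratio of 0.78 and a spot error of 0.38. With normexp its ratio was 0.17. Ptgir, the prostacyclin receptor gene, had a log2 ratio of -0.40, and Ptgdr, the other prostaglandin D2 receptor gene, had -0.38. Tbxas1, the thromboxane synthase gene, was singled out after its values were seen, because its probes disagree: the brighter gave 0.23, and the dimmer 1.07, or 0.26 with normexp. Adcy6, an adenylyl cyclase gene of the list on signalling inside the cell, was singled out in the same way. Its brighter probe gave 0.11, and its dimmer probe, with a signal of 73.0 in the Na2S3 array, against 29.4 in the water array, gave 1.11, or 0.38 with normexp.

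Arachidonate release and re-esterification genes had 17 of 23 members measured, 8 with a positive ratio and a median of -0.01. Pla2g1b, a secreted phospholipase A2 gene, had a log2 ratio of 0.54 with a spot error of 0.38, and -0.0011 with normexp. Pla2g2a, a secreted phospholipase of Paneth cells and inflammation, had a signal of 883 in the Na2S3 array, against 1048 in the water array. Its log2 ratio was -0.45 with a spot error of 0.06. Pla2g3, a further secreted phospholipase gene, had -0.40. Pla2g7, which encodes the platelet-activating factor hydrolase, was detected just in the water array, as were 2.21% of all genes with a named probe. It was at least 2.46-fold lower in the Na2S3 array, the 1 related gene with a bound past 2-fold. The share of all genes with such a bound in this direction was not computed, nor was this bound with normexp.

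Transport and breakdown genes beyond Hpgd had 9 of 12 members measured, 2 with a positive ratio and a median of -0.14. Akr1b8, an aldo-keto reductase gene, had a log2 ratio of 0.30 at its brighter probe and 0.74 at the other. Cbr3 and Cbr1, which encode carbonyl reductases that can reduce prostaglandin E2, had -0.27 and -0.24. Slco2a1, the prostaglandin uptake transporter gene, was singled out for its role after its values were seen. It had a signal of 47.4 in the Na2S3 array, against 45.3 in the water array, and a scaled log2 ratio of -0.14 with a spot error of 0.34.

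Lipoxygenase and leukotriene genes were mostly not measured, with 4 of 14 on both arrays, 1 of them positive, and a median of -0.15. Ltb4r, a leukotriene B4 receptor gene, had a signal of 160 in the Na2S3 array, against 87.0 in the water array, and a log2 ratio of 0.67 (0.43 with normexp). Lta4h, which makes leukotriene B4, had -0.17, and Ephx1, an epoxide hydrolase gene, had -0.21. Genes of prostaglandin E2 signalling inside the cell had 16 of 19 members measured, 9 with a positive ratio and a median of 0.02. Pde4d, which breaks down cyclic AMP, had a signal of 21071 at its brightest probe in the Na2S3 array, against 32346 in the water array, a log2 ratio of -0.83. Its 6 probes ran from -0.83 to 0.17 and so share no size. Gnas, the stimulatory G protein gene, had -0.36, and Rapgef3, a cyclic AMP sensor gene, had 0.46 with a spot error of 0.38.

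**Figure D3:**
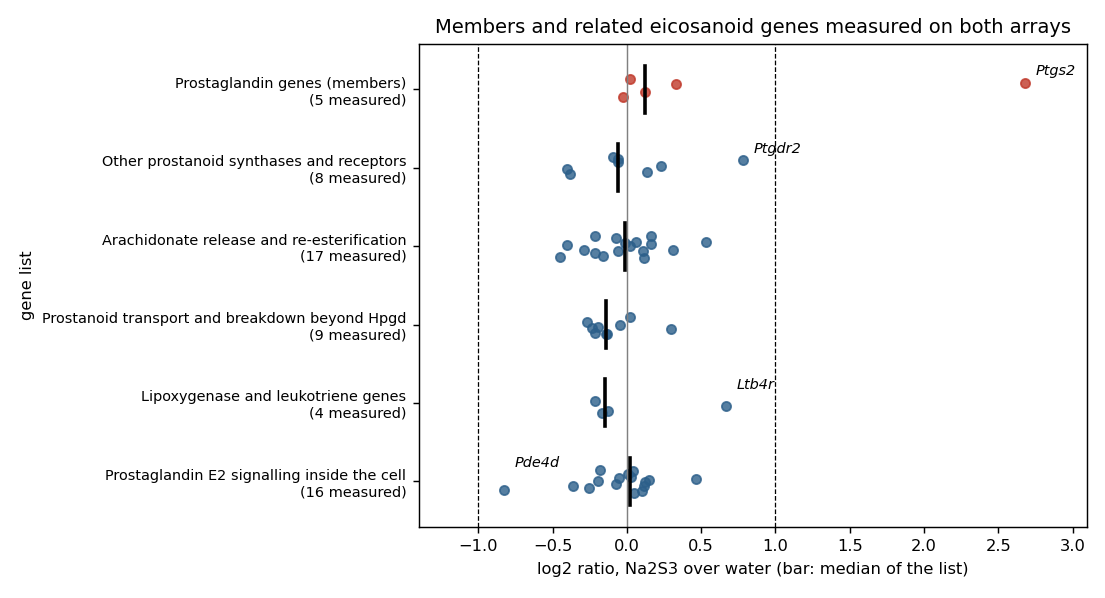
Log2 ratios of the Na2S3 array over the water array (horizontal axis) for the 5 measured prostaglandin genes in red and for 5 related gene lists in blue, each point a gene and each black bar a list's median. Dashed lines mark 2-fold, and only Ptgs2 lies beyond them among the genes plotted.

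The labelled cell type was checked against marker lists, each read by whether its genes were well above background. Of 14 intestinal epithelial markers with a probe, 6 were measured on both arrays, among them Krt8, Cdh1 and Cdx1, while Epcam, Vil1 and Cdx2 were not well above background. Since 48.0% of all genes with a named probe were measured on both arrays, that count does not set the epithelial markers apart from other genes. Of 11 fibroblast and mesenchymal markers, 8 were measured. Col1a1, Col3a1 and Vim were among them, while Lum, Pdgfra and Pdgfrb were not well above background. Signals of Col1a1, Col3a1 and Vim were 70180, 108680 and 45377 in the Na2S3 array, against 71687, 91981 and 38714 in the water array. S100a4, Col1a2 and Dcn were bright as well, the last and dimmest of them at 22813 in the Na2S3 array and 19555 in the water array. Thy1 and Acta2 were measured but dim, with signals of 117 and 63.0 in the Na2S3 array, against 128 and 65.8 in the water array. Among the measured epithelial markers, Krt8, Cdh1 and Cdx1 had 18283, 16264 and 2051 in the Na2S3 array, against 15892, 14703 and 2086 in the water array. Krt18, Krt19 and Ascl2 were dim, with 158, 251 and 196 in the Na2S3 array, against 142, 215 and 183 in the water array. Also measured were 2 of 7 tuft cell, 3 of 10 immune and mast cell and 3 of 5 endothelial markers. In these 5 lists 0 genes passed 2-fold in either direction, and the list medians lay between -0.27 and -0.06. The part of any other cell type in the Ptgs2 ratio was not tested.

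**Figure D4:**
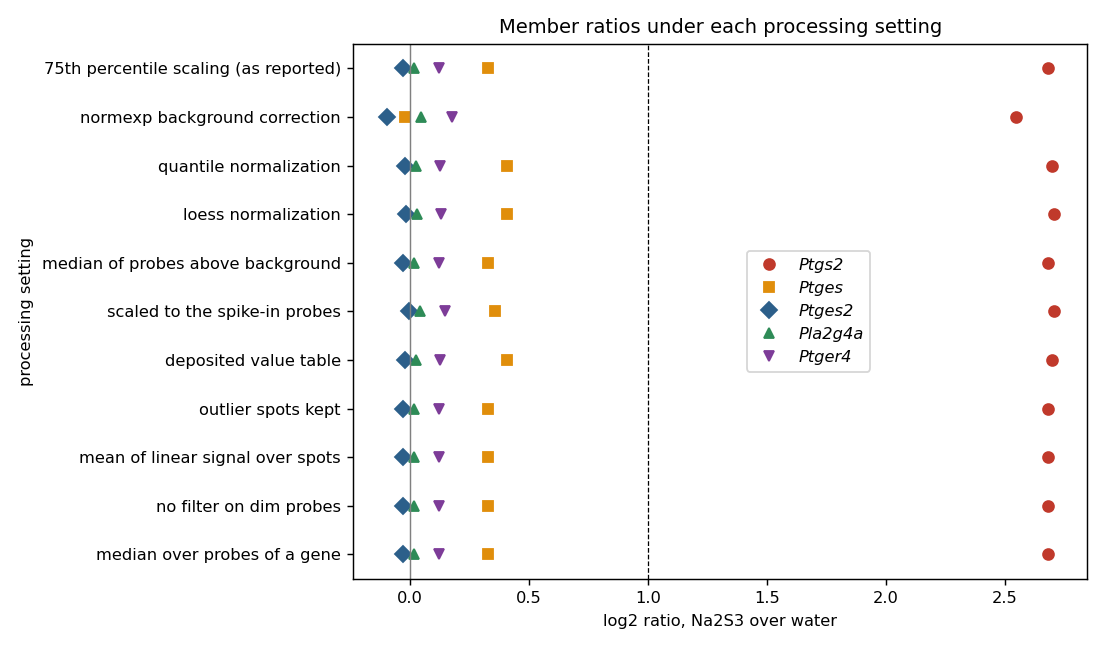
Log2 ratio of the Na2S3 array over the water array (horizontal axis) for the 5 measured prostaglandin genes under the reported setting and 10 processing alternatives (vertical axis), with the dashed line at 2-fold. Ptgs2 stays between 2.55 and 2.71, and Ptges is the gene that moves most, from 0.41 down to -0.02.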

How the data were processed

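Total RNA of 1 sample per group was amplified and labelled with Cy3, per the labels' protocols. The deposited scanner files give linear spot intensity values. The scanner software was Feature Extraction 10.7.1.1 according to the file headers, and 9.5.1.1 per the submitters' processing notes. The processed signal has background subtraction and spatial detrending applied per array, with no scaling across arrays. The deposited value table gives intensity values whose normalization is unstated. Its sorted columns differ by at most 0.36, so they share nearly the whole distribution and not the median alone. Quantile normalization of the processed signals gave nearly the same ratios, with a log2 ratio of 0.41 for Ptges under both. Its columns share a median of 19.3 and follow the processed signals of their own array (Pearson r 0.99997 over probes, log2 scale), so direction and scale are known.

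Outlier spots were removed (390 on the Na2S3 array and 448 on the water array, 0 of them spots of the 10 genes), and 0 spots were saturated. Repeat spots of a probe were averaged as log2 processed signals, and each array was scaled to its 75th percentile over 45598 non-control probes, which removed a shift of 0.21. Probes well above background numbered 22349 on the Na2S3 array and 22560 on the water array. A probe counted as well above background when more than 50% of its spots carried that flag, and each gene takes the brightest probe that passed on both arrays. The spot error is the SD of log2 ratios between repeat spots in bins of signal, divided by the square root of the number of spots. A bound divides the bright value by the dim array's lowest value well above background, or by the dim value itself where that is higher.

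Symbols come from the RefSeq table of the GRCr8 assembly for 21109 probes and from the files for 14743, while 9746 probes without a gene name were left out. Of the 17 probes of the 10 genes, 15 had an accession listed there under the same symbol. The other 2, the downstream Ptgs2 probe and a Ptger2 probe, have the name in the files alone. Akr1c18 is listed there as Akr1c3. Probe coordinates are those of the files (rn4), and promoters are those of RefSeq (GRCr8). Genes past 2-fold (log2 ratio at or beyond 1 in size) were counted. The counting step was run on simulated ratios whose noise was the spot error alone. Differences between cultures or arrays were not simulated, so that run does not measure how often the real counts are wrong. The members, the lists, the motifs and the naming rule were chosen with earlier results of these data known. The text names all members, up to 3 genes per related list with the largest ratio either way, and the 3 genes next above and below Ptgs2 in ratio. Alternatives used limma 3.58.1 in R 4.3.3 for normexp (offset 50), quantile and loess normalization.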

Additional observations from a re-analysis of the deposited data

How the results depend on the processing

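Ptgs2 was at least 2-fold higher under all 10 alternatives, with log2 ratios of 2.55 (normexp background correction) to 2.71 (loess, and scaling to spike-in probes). The settings without the dim-probe filter and with the median over probes returned the reported values for all 5 measured genes. Keeping outlier spots could act through the array scale alone, since 0 of them were spots of the 10 genes. For Ptgs2 the deposited table and quantile normalization both gave 2.70. These settings add little as separate checks. Ptges stood at -0.019 with normexp and at 0.33 to 0.41 under the other 9. Normexp was run with an offset of 50, and Ptges had signals of 49.7 in the Na2S3 array and 34.2 in the water array. The part of this offset in the lower ratio was not tested. Ptges2, Pla2g4a and Ptger4 moved by less than their spot errors under all 10, and the median of the measured members ran from 0.05 to 0.15. With no filter on dim probes, 1 of the 10 genes, Hpgd, counted as at least 2-fold lower, from values under the detection limits. The same setting gave 1062 higher and 1545 lower genes over the whole array, against 61 and 31 with normexp and 123 and 81 as reported. The medians of the 5 related lists moved by less than 0.10 under all alternatives. Medians crossed 0 for other synthases and receptors (-0.060 to 0.013), arachidonate release (-0.057 to 0.012) and signalling inside the cell (-0.008 to 0.043). Their sign is therefore not settled, while the other medians stayed below 0. The median over all probes above background on both arrays also moved, from -0.046 as reported to 0.0012 with quantile and 0.0046 with loess normalization.

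No paired analysis was possible because each group has 1 array. For the same reason no array was left out in turn. The spot error covers the spread between repeat spots only. Differences between cultures, or between the arrays in labelling and hybridisation, were not measured. Signal over background limits the reading of 5 of the 10 genes.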
